A study of Mus musculus with 30 samples.

Results

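A set of 10 genes that take up or send out lipid and lipoprotein particles were followed through the aorta and the kidney of mice that lacked the EGF receptor (EGFR) in vascular smooth muscle. The set was fixed by name and held 10 of the 41128 genes in both count tables: Cd36, Vldlr, Lrp1, Lrp2, Cubn, Mttp, Apob, Apoe, Scarb1 and Abca1. All 10 had counts in both tissues. The filter on low counts left 8 for testing in the aorta, without Lrp2 and Apob, and all 10 in the kidney. It used the counts of all libraries of a tissue together.

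Knockout (KO) mice came from crossing Egfr flox/flox C57BL/6 mice with Smmhc-Cre C57BL/6N mice, in which a tamoxifen-activated Cre sits on the Y chromosome and is driven by the promoter of Smmhc (Myh11), a smooth muscle myosin. Wild-type (WT) controls carried the same Cre but no LoxP sites. Every mouse was male, had the strain label C57Bl6J, and received tamoxifen at 1 mg per day on 5 days, so both the Cre and the drug were shared by KO and WT. From 6 weeks of age, which was 7 days after tamoxifen, mice were fed a high-fat diet (HFD) or standard diet (SFD) for 18 weeks. The aorta was profiled in 3 WT-SFD, 4 WT-HFD, 3 KO-SFD and 4 KO-HFD mice and the kidney in 4 mice of each group. From 3 mice (1 WT-SFD, 1 KO-SFD and 1 KO-HFD) both tissues were profiled. Within a tissue each library came from a separately numbered animal, so p-values refer to the spread between animals.

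Cells obtain lipid by several routes. CD36 carries fatty acids across the plasma membrane and also binds oxidised lipoproteins. The VLDL receptor and LRP1 internalise whole particles that carry apolipoprotein E, and megalin (Lrp2) with cubilin (Cubn) forms the endocytic receptor of the proximal tubule, which retrieves filtered proteins and small lipoproteins from the urine. On the export side, MTTP loads lipid onto apolipoprotein B in the endoplasmic reticulum, and apolipoprotein E coats secreted particles. ABCA1 and SR-BI (Scarb1) pass cholesterol out of the cell on its route to high-density lipoprotein. SR-BI can also take cholesteryl ester up.

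The regulatory sequences of 3 genes are shown because they belong to the genes on which the results turn: Apoe, called higher in kidney after HFD in both genotypes, Mttp, called there in KO, and Cd36, the tested member with the widest range between aortae. Each is the RefSeq window of GRCm38.p6 from 250 bases before to 50 bases after the annotated start, read 5′ to 3′ on the minus strand on which all 3 genes lie. Capitals mark every match, on either strand, of AGGTCA (a core motif of nuclear receptors), CACGTG (E-box), GGGCGG (GC box), CCAAT and TATAAA. No letter in the windows below belongs to more than 1 match.
Apoe, chr7:19699139-19699438: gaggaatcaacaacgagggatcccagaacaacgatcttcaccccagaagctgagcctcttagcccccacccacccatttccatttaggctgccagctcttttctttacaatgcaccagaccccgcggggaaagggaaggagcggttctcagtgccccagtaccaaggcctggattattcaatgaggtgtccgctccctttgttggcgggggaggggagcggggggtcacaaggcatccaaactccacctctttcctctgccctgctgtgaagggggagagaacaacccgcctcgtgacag
Mttp, chr3:138143369-138143668: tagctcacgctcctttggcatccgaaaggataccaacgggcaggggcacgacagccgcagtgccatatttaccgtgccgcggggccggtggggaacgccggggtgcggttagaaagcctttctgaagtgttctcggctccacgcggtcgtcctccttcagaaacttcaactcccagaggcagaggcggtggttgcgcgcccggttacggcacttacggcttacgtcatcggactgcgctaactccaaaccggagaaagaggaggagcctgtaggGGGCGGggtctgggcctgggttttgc
Cd36, chr5:17835847-17836146: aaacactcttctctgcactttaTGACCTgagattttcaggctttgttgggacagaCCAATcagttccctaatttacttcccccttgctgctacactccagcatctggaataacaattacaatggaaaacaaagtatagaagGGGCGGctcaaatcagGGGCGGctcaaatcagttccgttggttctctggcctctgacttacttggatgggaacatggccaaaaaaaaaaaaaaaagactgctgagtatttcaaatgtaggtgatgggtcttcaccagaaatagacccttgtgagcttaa
The Apoe window held none of these letters as a match. Mttp held a GC box 24 bases past the start. Cd36 held GC boxes 109 and 93 bases before the start, a CCAAT box 195 bases before it and AGGTCA on the opposite strand 228 bases before it. Windows were found for 9 of the 10 members, and among these 5 had a GC box, 2 a TATA box, 1 a CCAAT box, 1 an E-box and 1 the nuclear receptor motif. Of all 32851 windows of the same length, 35.7% held GGGCGG, 37.4% CCAAT, 16.3% AGGTCA, 13.6% TATAAA and 7.15% CACGTG. The RefSeq start matched the outermost GENCODE start for Apoe but lay 1550 bases inside the gene for Mttp and 52905 bases inside it for Cd36, so these windows stand for 1 of several possible starts. Reads were counted over exons. The whole genes span chr7:19696109-19699188 for Apoe, chr3:138089854-138144968 for Mttp and chr5:17781690-17888801 for Cd36.

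Aortic libraries held 6403699 to 13052870 counted fragments (median 8998366), and kidney libraries 16354880 to 28331314 (median 19544128). Values are given as FPM, the fragments out of a library total set to 1000000 after scaling by trimmed mean of M values (TMM). A single fragment was worth 0.07999 FPM in the deepest aorta and 0.03426 FPM in the deepest kidney. A gene was called changed when the edgeR quasi-likelihood test gave an adjusted p under 0.05 over all genes tested in that tissue. Fold changes are log2 values with their standard errors (SE).

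The deleted gene itself was lower in KO aorta. Egfr stood at 46.7, 39.5 and 54.3 FPM in WT-SFD, at 65.1, 57.0, 51.2 and 57.0 FPM in WT-HFD, at 26.8, 35.5 and 28.01 FPM in KO-SFD and at 27.5, 40.6, 39.7 and 33.4 FPM in KO-HFD. The genotypes did not overlap on SFD (log2 difference −0.64, SE 0.17, edgeR adjusted p = 0.531) or on HFD (−0.70, SE 0.14, adjusted p = 0.13). In the kidney, where smooth muscle is a small share of the tissue, the differences were 0.09 on SFD and −0.09 on HFD, and the genotypes overlapped. Defining markers fitted the tissues: smooth muscle markers summed to 9979 to 17970 FPM in the aortae against 124.3 to 184.5 FPM in the kidneys, and proximal tubule markers to 21230 to 40420 FPM in the kidneys.

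A group of 4 aortae stood apart before any comparison. Adipocyte markers (10 genes, of which 9 had counts) summed to 2391, 1459 and 46.4 FPM in WT-SFD replicates 1, 2 and 3, and to 1163, 464 and 41.2 FPM in KO-SFD replicates 1, 2 and 3. In the 8 HFD aortae the sum stayed between 18.3 and 116.6 FPM. Cfd was the most abundant marker in 7 of 14 aortae, among them all 6 SFD aortae, and the brown fat gene Ucp1 stood at 580, 256, 194 and 73.3 FPM in replicates 1 and 2 of WT-SFD and of KO-SFD against 0.544 to 27.5 FPM in the other 10. All 4 were SFD libraries, so their adipocyte signal cannot be told apart from the diet. The aortae had been cleaned of surrounding fat and connective tissue. WT-SFD replicate 2 also held striated muscle markers at 750 FPM, with Ttn the most abundant, against 26.0 to 114.5 FPM in the other aortae. The aortic diet differences of the members are therefore given with and without these 4.

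Levels per kilobase of exon ordered the members differently in the tissues, which were sequenced at different places and are set side by side without a test. In the kidney Apoe led at 412 ± 257 FPM per kb (SD, n = 16), with Lrp2 at 86.8 ± 14.9 and Cd36 at 85.1 ± 18.3, which lay within each other's spread. Cubn followed at 20.2 ± 1.92 and Apob at 12.0 ± 3.15. Vldlr was at 7.60 ± 1.02, Lrp1 at 5.10 ± 0.663 and Mttp at 4.74 ± 1.54, and the latter pair were within each other's spread. Scarb1 at 2.14 ± 0.202 and Abca1 at 2.08 ± 0.464 FPM per kb were lowest and also within each other's spread.

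In the aorta Apoe at 85.7 ± 16.6 FPM per kb (SD, n = 14) and Lrp1 at 77.8 ± 8.59 were highest and within each other's spread. Cd36 averaged 33.4 ± 49.0 because its libraries ran from 4.87 to 148.5 FPM per kb. Abca1 at 11.3 ± 3.002 and Vldlr at 10.6 ± 1.22 were alike within their spread, and Scarb1 was at 1.48 ± 0.772. Mttp was at 0.301 ± 0.196 and Cubn at 0.101 ± 0.0582 FPM per kb. The tubule receptor Lrp2 and the particle protein Apob were near the limit of detection, with 63 and 17 fragments over all 14 aortae. Dividing by the longest transcript in place of all exons gave Scarb1 4.07 FPM per kb in aortae and 5.89 in kidneys, where it then stood above Abca1 at 2.10 FPM per kb.

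**Figure D1:**
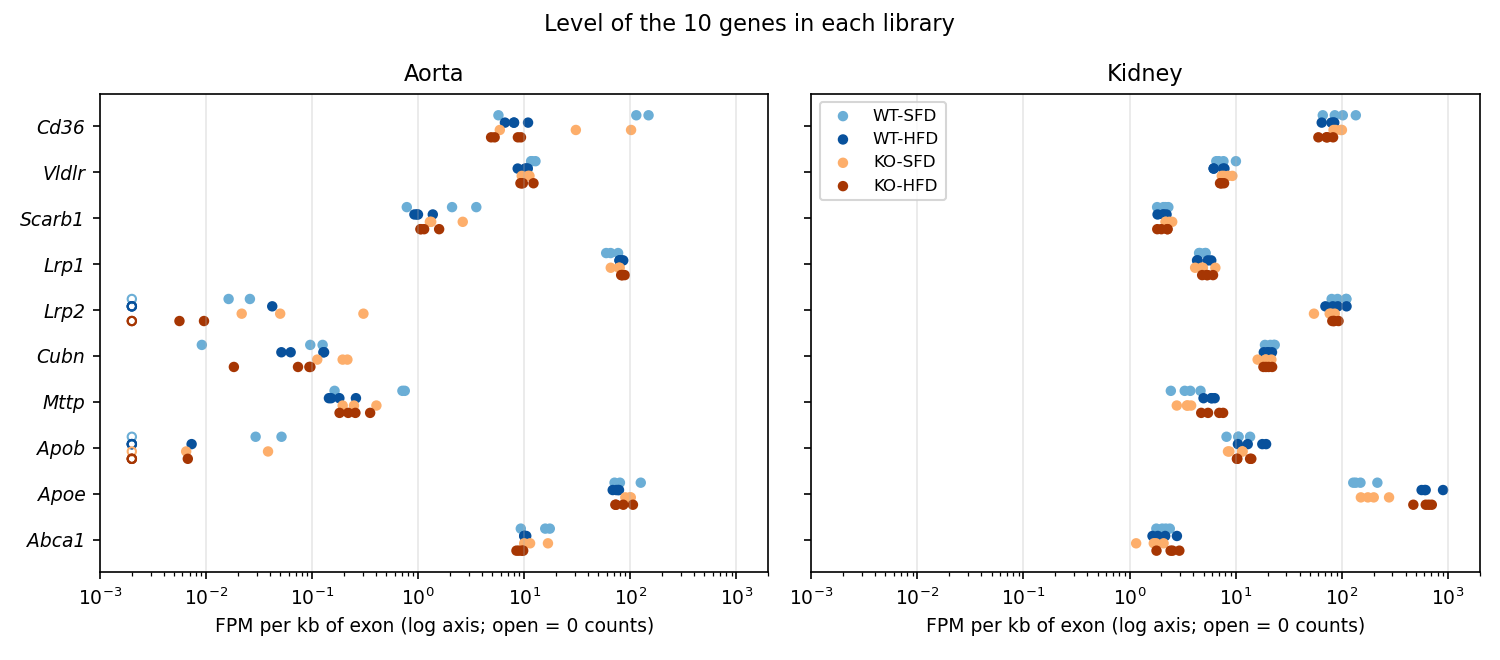
Level of each member per kilobase of exon (FPM per kb, logarithmic axis), with 1 point per mouse for the 14 aortae and 16 kidneys, and open points marking libraries with 0 counts. Lrp2, Cubn, Apob and Mttp sit higher in kidney than in aorta, and aortic Cd36 spreads from 4.87 to 148.5 FPM per kb.

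In the kidney HFD was accompanied by higher Apoe in both genotypes and by higher Mttp in KO. Apoe encodes the main apolipoprotein ligand of the lipoprotein receptor family, and Mttp the transfer protein needed to build apolipoprotein B particles. These were the only members called: 1 of 10 in WT and 2 of 10 in KO. Over all 15034 tested genes 0.964% passed in WT (123 higher, 22 lower) and 2.39% in KO (236 higher, 124 lower).

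Apoe stood at 289.9, 463.6, 321.2 and 274.6 FPM in the WT-SFD kidneys and at 1322, 1928, 1293 and 1211 FPM in the WT-HFD kidneys. In KO it was at 377.2, 597, 324 and 428.4 FPM on SFD and at 1012, 1325, 1511 and 1414 FPM on HFD. Every HFD kidney lay above every SFD kidney of either genotype. WT means were 337.3 ± 86.4 FPM on SFD and 1438 ± 329.6 FPM on HFD, and KO means 431.7 ± 118 and 1315 ± 216 FPM (SD, n = 4 each). Apoe rose by 2.09 on the log2 scale in WT (SE 0.22, 95% interval 1.63 to 2.56, 4.27-fold, edgeR adjusted p = 0.00017) and by 1.61 in KO (SE 0.22, interval 1.15 to 2.07, 3.05-fold, adjusted p = 0.000594). The diet effect in KO minus that in WT was −0.49 (SE 0.30, interval −1.12 to 0.15, adjusted p = 1) and did not pass. In whole tissue more cells of an Apoe-expressing type and more Apoe RNA per cell cannot be told apart.

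Mttp stood at 20.6, 15.2, 23.2 and 29.0 FPM in WT-SFD and at 36.7, 36.9, 30.9 and 39.3 FPM in WT-HFD kidneys. The KO-SFD kidneys were at 21.6, 17.3, 23.6 and 21.9 FPM and the KO-HFD kidneys at 29.4, 34.1, 47.3 and 43.5 FPM. SFD and HFD kidneys did not overlap in either genotype. Mttp rose in KO by 0.87 (SE 0.18, interval 0.49 to 1.24, 1.83-fold, edgeR adjusted p = 0.0125). In WT the difference was 0.70 (SE 0.18, interval 0.33 to 1.08, 1.63-fold, adjusted p = 0.0784) and did not pass. The diet effects differed by 0.16 (SE 0.25, interval −0.36 to 0.69, adjusted p = 1), so the call in KO alone is not a difference between genotypes. Single animals decided these calls: without KO-SFD replicate 2 or KO-HFD replicate 4 the adjusted p in KO became 0.0535 and 0.0523, and without WT-SFD replicate 4 that in WT became 0.0302. The exons of Mttp share 457 bases with Trmt10a on the opposite strand, and reads there cannot be assigned without the strand setting, which is not given in the sources used here. Trmt10a differed by 0.09 in WT and −0.08 in KO (adjusted p = 0.979 and 0.836).

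Apob, the structural protein of the particles that MTTP fills, was at 190.7, 114.3, 147.8 and 148.3 FPM in WT-SFD and 269.8, 146.4, 248.6 and 181.1 FPM in WT-HFD kidneys. In KO it was at 160.2, 121.6, 162.1 and 118.0 FPM on SFD and 144.6, 190.8, 143.3 and 195.8 FPM on HFD. The groups overlapped in both genotypes. The log2 differences were 0.49 in WT (SE 0.19, adjusted p = 0.473) and 0.26 in KO (SE 0.19, adjusted p = 0.535), and neither passed. Abca1, the cholesterol exporter, was at 21.0, 24.8, 18.5 and 22.8 FPM in WT-SFD, 29.0, 19.1, 22.5 and 17.1 FPM in WT-HFD, 18.4, 12.0, 17.5 and 21.7 FPM in KO-SFD and 30.5, 25.3, 26.3 and 18.6 FPM in KO-HFD kidneys. Its difference was 0.01 in WT (SE 0.19, adjusted p = 0.999) and 0.53 in KO (SE 0.19, unadjusted p = 0.0136, adjusted p = 0.18), with overlapping groups.

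**Figure D2:**
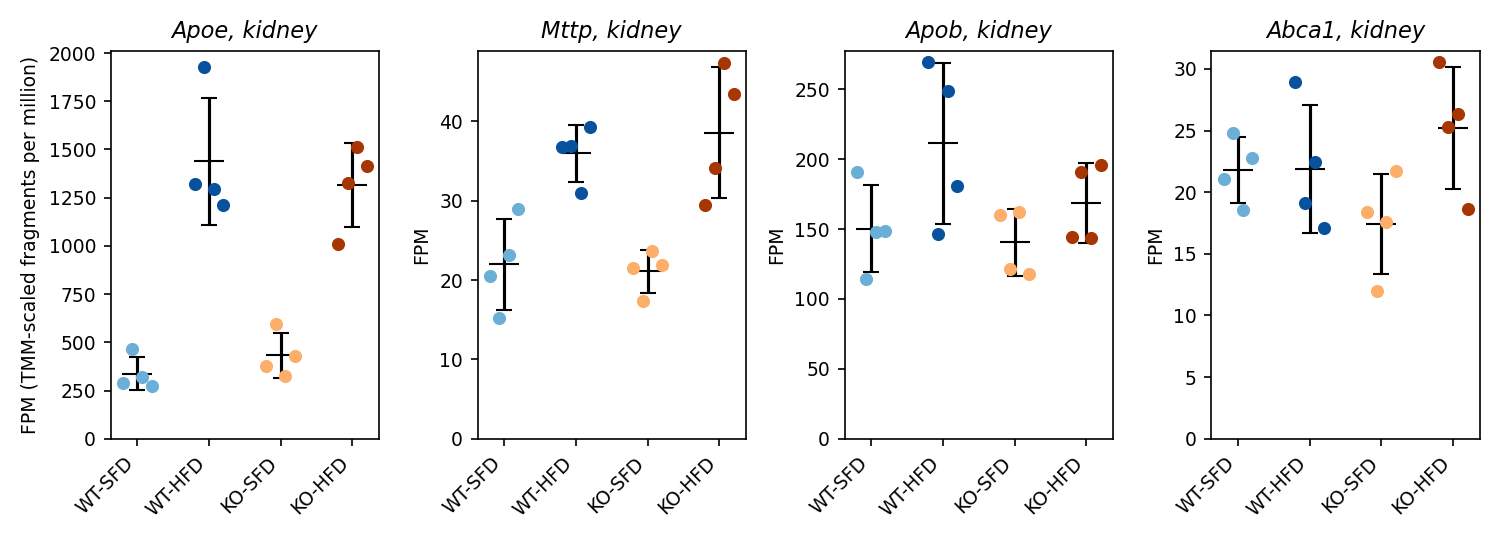
Kidney FPM of Apoe, Mttp, Apob and Abca1 in each mouse by genotype and diet, with the mean and SD of 4 mice per group. Apoe and Mttp separate SFD from HFD in both genotypes, with Apoe means of 337.3 and 1438 FPM in WT, whereas the groups of Apob and Abca1 overlap.

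The receptors of the kidney did not pass the test with diet. Cd36 was at 308.9, 238.0, 367.5 and 487.5 FPM in WT-SFD, 232.5, 299.4, 287.0 and 305.1 FPM in WT-HFD, 300.5, 314.7, 352.2 and 360.3 FPM in KO-SFD and 257.5, 216.3, 263.0 and 297.7 FPM in KO-HFD kidneys. All KO-HFD kidneys lay below all KO-SFD kidneys, and the WT groups overlapped. The differences were −0.36 in KO (SE 0.17, unadjusted p = 0.0495, adjusted p = 0.308) and −0.32 in WT (SE 0.17, adjusted p = 0.707). The endocytic pair of the proximal tubule was abundant, with Lrp2 between 914.2 and 1854 FPM and Cubn between 240.8 and 348.9 FPM, and SFD and HFD overlapped in both genotypes for both. Vldlr between 62.5 and 101.3 FPM, Lrp1 between 73.6 and 114.1 FPM and Scarb1 between 15.5 and 21.5 FPM overlapped as well. Across the 20 kidney diet tests of the members 7 had an unadjusted p under 0.05, which held for 8.05% of all genes in WT and 16.1% in KO, and the log2 differences ran from −0.36 to 2.09. The median over the 10 members was −0.006 in WT and 0.155 in KO, beside −0.0047 and −0.0037 over all genes. Members whose SFD and HFD mice did not overlap numbered 2 of 10 in WT (Apoe and Mttp) and 3 of 10 in KO (Apoe, Mttp and Cd36), and over all genes this held for 5.01% in WT and 8.87% in KO.

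**Figure D3:**
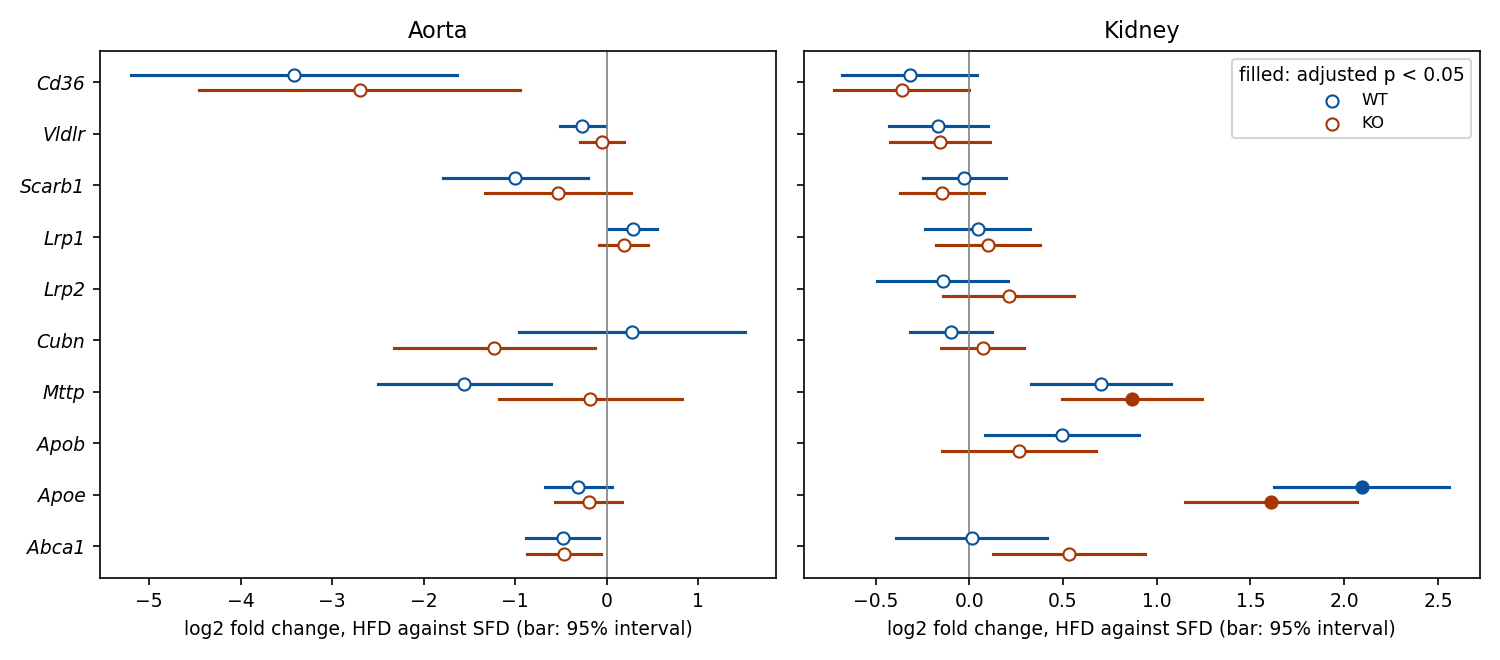
Log2 change from SFD to HFD of each tested member in WT and KO, in aorta and kidney, with 95% intervals from edgeR and filled points for an adjusted p under 0.05. The filled points are kidney Apoe in WT (2.09) and KO (1.61) and kidney Mttp in KO (0.87).

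Markers of other cells moved with diet in the same kidneys. Of 7 liver markers 5 were tested and 2 were called higher in each genotype: Fgb by 2.21 in WT and 2.58 in KO (adjusted p = 0.0357 and 0.0246) and Ttr by 1.55 and 2.33 (adjusted p = 0.0108 and 0.000399). The list summed to 107.1 to 160.8 FPM in WT-SFD, 281.7 to 327.8 in WT-HFD, 82.4 to 130.0 in KO-SFD and 235.0 to 603.7 in KO-HFD kidneys, and Ttr was its most abundant gene in every kidney. Albumin (Alb), which defines hepatocytes, averaged 6.40 FPM in WT-SFD, 10.9 in WT-HFD, 5.57 in KO-SFD and 9.70 FPM in KO-HFD kidneys and did not pass (adjusted p = 0.21 and 0.102), F2 differed by −0.09 in WT and −1.50 in KO (unadjusted p = 0.0152, adjusted p = 0.189), and Ahsg and Serpina3k had at most 3 and 2 fragments in any kidney. Of 10 proximal tubule markers 1 was called higher in WT and 4 in KO, among them the glucose transporter Slc5a2 in both (1.21 and 1.54, adjusted p = 0.00533 and 0.000594), while the most abundant, Kap, was not called (−0.41 and −0.59). In KO 3 of the 10 (Kap, Slc7a13 and Aqp1) were lower, each at an unadjusted p under 0.05 and not called, and in WT 5 were higher and 5 lower (median 0.038). Podocyte markers (5 tested, 0 called) were higher on HFD in KO for 5 of 5 genes, 4 of them at an unadjusted p under 0.05, with a median of 0.47, and the median in WT was −0.003. The same markers were lower in KO-SFD than in WT-SFD kidneys for 5 of 5 genes, each at an unadjusted p under 0.05 (median −0.49). Of 4 tested markers of the thick ascending limb and distal tubule 1 was called in KO, the thiazide-sensitive transporter Slc12a3 (0.71, SE 0.14, adjusted p = 0.0124), and 0 in WT. Umod and Slc12a1 of the same list differed the other way in KO (−0.59 and −0.81, adjusted p = 0.107 and 0.191), the list median was −0.284, and its sum was 7487 to 8074 FPM in KO-SFD against 4218 to 6381 FPM in KO-HFD kidneys. No macrophage marker was called (7 tested, median 0.29 in WT and 0.04 in KO), though in WT 7 of 7 were higher on HFD, 2 of them at an unadjusted p under 0.05. Collecting duct markers (4 tested, 0 called) were lower on HFD for 4 of 4 genes in both genotypes (median −0.409 in WT and −0.207 in KO), and fibroblast markers (6 tested, 0 called) were higher for 6 of 6 in WT and 3 of 6 in KO. With the proximal tubule markers as a covariate the Apoe difference was 1.91 in WT and 1.29 in KO (adjusted p = 0.00247 and 0.0472), and that of Mttp was 0.50 and 0.42 (adjusted p = 0.213 and 0.266). The mean log2(FPM + 1) of these markers was 9.797 to 9.963 in KO-SFD and 10.1 to 10.65 in KO-HFD kidneys, without overlap. Their summed FPM averaged 33390 and 29970, in the other direction. In WT the mean was 9.91 to 10.21 on SFD and 10.12 to 10.41 on HFD. In KO this covariate therefore cannot be told apart from the diet. With the macrophage markers as a covariate Apoe differed by 1.88 and 1.61 (adjusted p = 0.00113 and 0.00042). Smooth muscle markers (5 tested, 0 called) were lower on HFD for 4 of 5 genes in both genotypes (median −0.023 in WT and −0.294 in KO). In KO 1 of them had an unadjusted p under 0.05, and in WT 0 did. The part of the liver, podocyte, distal tubule, collecting duct, fibroblast and smooth muscle markers in these results was not tested.

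In the aorta no member was called with diet in either genotype, and no gene was: 0% of 14796 passed in WT and 0% in KO, with 2520 and 1162 genes at an unadjusted p under 0.05. This count rested on single libraries and on the method. Without WT-SFD replicate 3 the number of genes called in WT was 1907 by edgeR, with library totals in place of TMM 312 and without the low count filter 347, and without KO-SFD replicate 3 it was 15 in KO. By DESeq2, 666 genes passed in WT and 8 in KO, among them 2 members in WT (Cd36 and Mttp) and 0 in KO. Cd36, Scarb1, Mttp and Abca1 had their highest values in the aortae rich in adipocyte markers. Cd36 is also abundant in adipocytes, where it takes up fatty acids for storage.

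Cd36 stood at 533.2, 408.6 and 20.5 FPM in WT-SFD replicates 1, 2 and 3 and at 28.7, 23.6, 39.0 and 28.8 FPM in WT-HFD. In KO-SFD replicates 1, 2 and 3 it was at 364.8, 110.0 and 21.1 FPM, and in KO-HFD at 17.5, 31.3, 33.4 and 18.9 FPM. The 4 high values were those of the 4 aortae rich in adipocyte markers, and in the other 10 SFD and HFD aortae shared the range from 17.5 to 39.0 FPM. The fitted difference was −3.42 in WT (SE 0.84, unadjusted p = 0.00099, adjusted p = 0.0683) and −2.70 in KO (SE 0.82, adjusted p = 0.526). Without the 4 aortae it was 0.55 in WT and 0.27 in KO, and with the adipocyte markers as a covariate −0.33 and 0.15. The fit without the 4 aortae keeps 1 SFD library per genotype, whose spread is taken from the HFD groups. Without WT-SFD replicate 3, the only WT-SFD aorta poor in adipocyte markers, the WT difference was −3.97 (adjusted p = 0.000782, against 0.000782 to 0.341 over the 7 fits that left out a library of these groups). Without KO-SFD replicate 1 the KO difference was −1.355, and it ranged down to −3.225 when other libraries were left out. The diet effects differed between genotypes by 0.72 (SE 1.14, adjusted p = 0.998), with 0.144 to 2.061 when libraries were left out (0.144 without WT-SFD replicate 1, 0.153 without KO-SFD replicate 3, 1.276 without WT-SFD replicate 3 and 2.061 without KO-SFD replicate 1).

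Scarb1 was at 30.0, 17.7 and 6.64 FPM in WT-SFD, 8.47, 7.84, 11.7 and 8.31 in WT-HFD, 22.4, 11.3 and 10.97 in KO-SFD and 8.93, 9.67, 9.04 and 13.4 FPM in KO-HFD aortae, in the same order of replicates. WT-SFD replicates 1 and 2 and KO-SFD replicate 1 were highest, and the diets overlapped in both genotypes. Its difference was −0.999 in WT (SE 0.37, adjusted p = 0.179) and −0.54 in KO (SE 0.37, adjusted p = 0.761), and without the 4 aortae 0.45 and −0.11. Mttp rested on 7 to 43 fragments per aorta. It was at 4.64, 4.41 and 1.01 FPM in WT-SFD, 1.12, 1.61, 0.938 and 0.895 in WT-HFD, 1.21, 2.51 and 1.54 in KO-SFD and 1.59, 1.13, 1.36 and 2.19 FPM in KO-HFD aortae. WT-SFD replicates 1 and 2 stood above all others. Its difference was −1.56 in WT (SE 0.44, adjusted p = 0.0821) and −0.18 in KO (SE 0.47, adjusted p = 0.955), and without the 4 aortae 0.19 and −0.02. With the adipocyte markers as a covariate the Mttp difference was −1.002 in WT and 0.22 in KO, and that of Scarb1 was −0.17 and 0.16.

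Abca1 was at 180.4, 163.5 and 96.2 FPM in WT-SFD, 104.0, 103.5, 104.9 and 108.2 in WT-HFD, 173.3, 117.6 and 103.5 in KO-SFD and 99.2, 101.2, 87.5 and 92.5 FPM in KO-HFD aortae. The KO groups did not overlap and the WT groups did. The difference was −0.48 in WT (SE 0.19, adjusted p = 0.199) and −0.47 in KO (SE 0.19, adjusted p = 0.574), without the 4 aortae 0.13 and −0.12, and with the adipocyte covariate −0.058 and −0.072. Leaving out WT-SFD replicate 3 gave adjusted p-values of 0.00481 for Scarb1, 0.00199 for Mttp and 0.00593 for Abca1 in WT, with differences of −1.38, −1.96 and −0.71. The adjusted p-values over the 7 fits that left out a library ranged from 0.00481 to 0.716, 0.00199 to 0.409 and 0.00593 to 0.625.

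**Figure D4:**
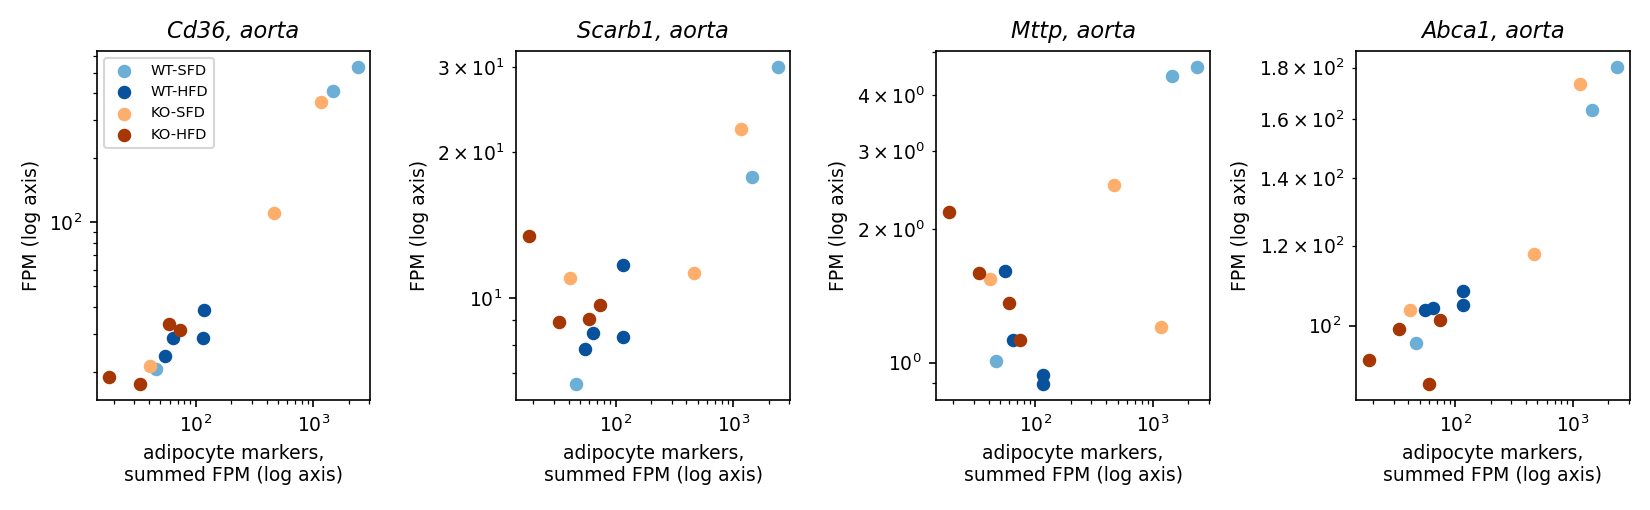
Aortic FPM of Cd36, Scarb1, Mttp and Abca1 against the summed FPM of the adipocyte markers in the same library, 1 point per mouse, on logarithmic axes. The 4 aortae with adipocyte sums of 464 to 2391 FPM are all SFD and include the highest value of each gene, such as Cd36 at 533.2 FPM.

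The particle receptors Lrp1 and Vldlr varied less between aortae. Lrp1 was at 1156, 1049 and 1359 FPM in WT-SFD, 1401, 1403, 1471 and 1518 in WT-HFD, and 1158, 1380 and 1406 FPM in KO-SFD aortae. Its KO-HFD replicates 2, 3 and 4 were at 1478, 1491 and 1567 FPM, and replicate 1 lay between 1406 and 1478 FPM. Each HFD group lay above its SFD group, with differences of 0.29 in WT (SE 0.12, adjusted p = 0.256) and 0.19 in KO (SE 0.12, adjusted p = 0.742). The lowest 3 values (1049, 1156 and 1158 FPM) were those of 3 of the 4 aortae rich in adipocyte markers, and without the 4 the differences were 0.10 and 0.09. Vldlr was at 116.8, 128.5 and 119.0 FPM in WT-SFD and 87.3, 102.6, 108.7 and 105.4 FPM in WT-HFD, a difference of −0.27 without overlap (SE 0.11, adjusted p = 0.245). The KO groups overlapped between 92.7 and 123.0 FPM (−0.05, SE 0.11). Without the 4 aortae the Vldlr difference was −0.23 in WT and −0.14 in KO. Apoe, unlike in the kidney, was spread over 145.9 to 268.2 FPM with overlapping diets in both genotypes. Its difference was −0.31 in WT and −0.19 in KO, and without the 4 aortae 0.07 and −0.09.

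Cubn rested on 1 to 32 fragments per aorta and its KO-SFD mice (3.22, 1.67 and 2.90 FPM) stood above its KO-HFD mice (1.10, 1.41, 1.44 and 0.274 FPM). The KO difference was −1.23 (SE 0.51, adjusted p = 0.585) and that in WT 0.28 (SE 0.58, adjusted p = 0.858), and without the 4 aortae they were −1.36 and −0.40. Lrp2 had 38 fragments in KO-SFD replicate 1 and 0 to 7 in each other aorta. In that library the tubule genes Slc34a1, Umod and Amn, the partner of cubilin, had 0 fragments, and Cubn had 24. Of 10 proximal tubule markers 7 were at 0 in it, and Aqp1 at 91.89 FPM made up most of their sum of 93.37 FPM. That sum was 69.09 and 75.69 FPM in KO-SFD replicates 2 and 3. Of 5 thick ascending limb and distal tubule markers 3 were at 0 in KO-SFD replicate 1, and Slc12a3 was at 0.2679 FPM. Apob had 0 to 7 fragments per aorta.

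Over the 16 aortic diet tests of the members 9 had an unadjusted p under 0.05, beside 17% of all genes in WT and 7.85% in KO, and the median difference was −0.396 in WT and −0.331 in KO, beside −0.0116 and −0.0019 over all genes. SFD and HFD did not overlap for 2 of 8 members in WT (Lrp1 higher, Vldlr lower) and for 3 of 8 in KO (Lrp1 higher, Cubn and Abca1 lower). Over all genes 8.96% did not overlap in WT and 7.04% in KO. Of the adipocyte markers 9 of 9 tested were lower on HFD in both genotypes (median −3.79 in WT and −3.41 in KO, 0 called). Striated muscle markers were lower for 5 of 5 in WT, 3 of them at an unadjusted p under 0.05 (median −1.476), and for 4 of 5 in KO (median −0.566). Endothelial markers were lower for 5 of 7 in WT and 6 of 7 in KO, with 3 and 2 at an unadjusted p under 0.05. Fibroblast markers were higher for 6 of 6 in both genotypes, and smooth muscle markers for 5 of 6 in WT and 6 of 6 in KO. None of these was called. The part of the striated muscle, endothelial, fibroblast and smooth muscle markers in the aortic values was not tested.

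**Figure D5:**
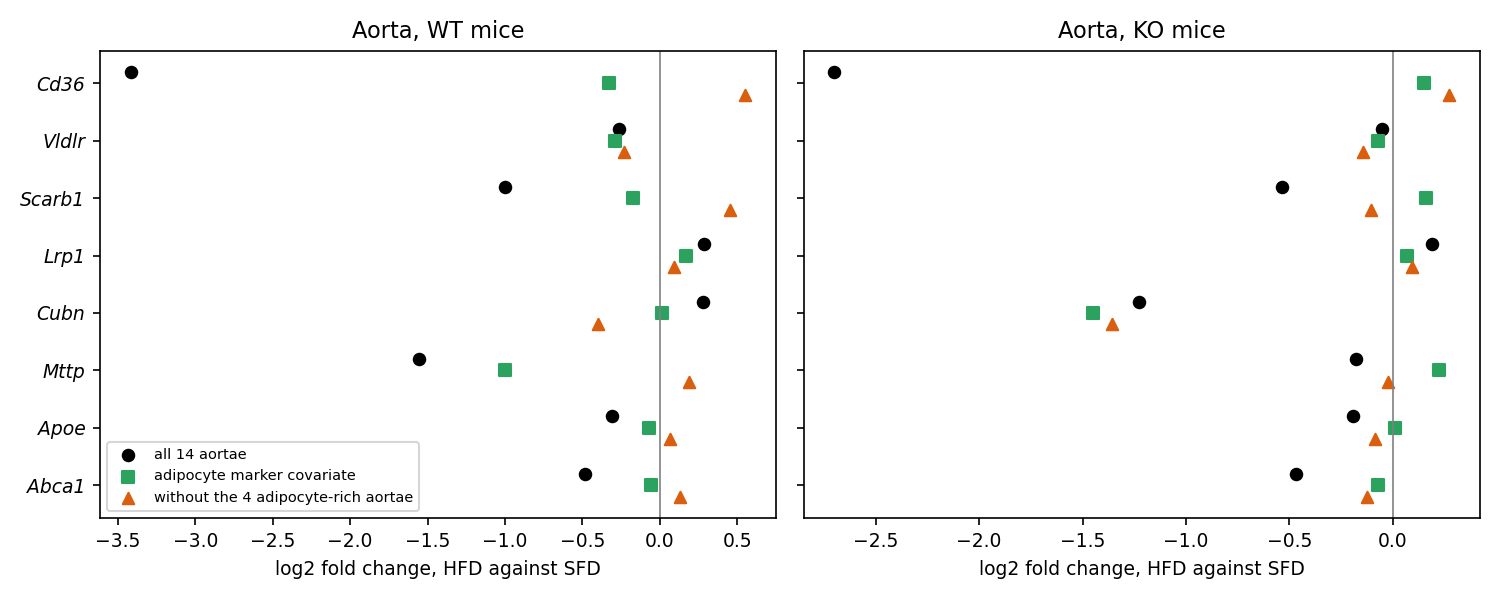
Log2 change from SFD to HFD of the 8 tested members in the aorta from 3 fits: all 14 aortae, the adipocyte markers as a covariate, and without the 4 aortae rich in adipocyte markers. Cd36 in WT moves from −3.42 to −0.33 and 0.55, while Vldlr in WT stays between −0.29 and −0.23.

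The deletion of EGFR in smooth muscle was not accompanied by a call for any member on either diet. KO against WT, 0.0811% of aortic genes passed on SFD and 0.0811% on HFD (12 genes each), and 0.0133% of kidney genes on SFD (2 genes) and 0% on HFD. Of the 16 aortic tests of members 0 had an unadjusted p under 0.05, with log2 differences from −0.98 to 1.17, and of the 20 kidney tests 1 did, for Lrp2 on SFD. Over all genes an unadjusted p under 0.05 held for 6.54% on SFD and 5.35% on HFD in the aorta, and for 8.69% and 1.75% in the kidney. Without the 4 aortae rich in adipocyte markers 0 members were called in the aorta as well. Lrp2 was at 1845, 1524, 1342 and 1840 FPM in WT-SFD and at 1435, 914.2, 1327 and 1286 FPM in KO-SFD kidneys, which overlapped (−0.40, SE 0.16, edgeR unadjusted p = 0.0266, adjusted p = 0.54). On HFD the WT kidneys lay between 1172 and 1854 FPM, and every KO kidney fell within that range. The diet effect differed between genotypes for no gene in the aorta (0% of 14796, 646 at an unadjusted p under 0.05, 2 by DESeq2) and none in the kidney (0% of 15034, 503 unadjusted, 1 by DESeq2). For the members this value lay between −1.51 (Cubn) and 1.38 (Mttp) in aortae and between −0.49 and 0.52 in kidneys. Without the 4 aortae rich in adipocyte markers it was −0.96 for Cubn and −0.215 for Mttp.

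A further 6 lists of genes of the same pathways were counted without the members. In the kidney the lipase and fatty acid uptake list (17 tested) had a median difference of 0.02 in both genotypes, and Lpl and Fabp1 were called in KO. Lpl, the lipase that frees fatty acids from circulating particles, fell in KO from 733.5, 694.2, 629.5 and 983.4 FPM to 499.4, 345.6, 325.6 and 273.3 FPM (−1.07, SE 0.27, adjusted p = 0.0423), and in WT the difference was −1.07 (SE 0.27, adjusted p = 0.0762). Lpl is also an adipocyte gene, and Cfd, the most abundant adipocyte marker in the 8 SFD kidneys, averaged 40.0 FPM in WT-SFD, 2.55 in WT-HFD, 86.7 in KO-SFD and 6.13 FPM in KO-HFD kidneys. The SFD kidneys differed among themselves: Cfd was at 6.505, 72.44, 8.085 and 73.02 FPM in WT-SFD and 82.94, 15.52, 10.17 and 238 FPM in KO-SFD. The adipocyte markers summed to 220.3, 27.38, 19.99 and 461.4 FPM in KO-SFD replicates 1, 2, 3 and 4. In the KO-HFD kidneys that sum was 8.095 to 90.48 FPM. Of the 9 adipocyte markers tested in the kidney 7 were lower on HFD in WT and 8 in KO, with 0 called lower, and Lep was called higher in KO (4.91, adjusted p = 0.0158). The part of adipocytes in the kidney values of Lpl and Cd36 was not tested. Fabp1, a liver-type fatty acid binding protein, rose by 3.51 in KO (SE 0.56, adjusted p = 0.00175) on 3 to 86 fragments per kidney, and in WT the difference was 1.99 (adjusted p = 0.0906).

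Among partners of megalin and cubilin (8 tested in the kidney) and among the lipoprotein receptor family with its helpers (17 tested) 0 genes were called in WT and 1 in KO, which was Dab2 in both lists. Dab2 is an adaptor that links the tails of megalin and related receptors to clathrin. It was at 240.0, 182.8, 214.9 and 271.5 FPM in KO-SFD and 363.5, 378.8, 504.7 and 469.8 FPM in KO-HFD kidneys. It rose in KO by 0.92 (SE 0.13, adjusted p = 0.000822), and the WT difference was 0.51 (SE 0.13, adjusted p = 0.0821). Lrp2 and Cubn themselves had differences in KO of 0.21 and 0.07 that did not pass. The apolipoprotein and assembly list (15 tested) had 0 called in WT and 1 higher in KO, the editing enzyme Apobec1 (0.53, SE 0.12, adjusted p = 0.0204), which converts Apob transcripts to the short form. The cholesterol efflux list (15 tested) had 0 in WT and 1 in KO, the lysosomal lipase Lipa (0.89, SE 0.15, adjusted p = 0.00273). The scavenger receptor list (8 tested) had 1 in WT, Cxcl16 (0.70, SE 0.14, adjusted p = 0.0185), and 0 in KO, where its difference was 0.49 (adjusted p = 0.0844). Medians of these lists lay between −0.10 and 0.21 in WT and between −0.01 and 0.09 in KO.

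In the aorta 0 genes of the 6 lists were called with diet, and 0 in either tissue with genotype or in the difference of diet effects. The lipase and fatty acid uptake list had 14 of 15 genes lower on HFD in WT and 13 of 15 in KO, with medians of −2.34 and −1.13. Lpl was at 1512, 1464 and 87.1 FPM in WT-SFD replicates 1, 2 and 3 and at 1031, 273.2 and 59.6 FPM in KO-SFD replicates 1, 2 and 3, against 42.7 to 120.1 FPM in the HFD aortae, so its high values were again those of the 4 aortae rich in adipocyte markers (WT −3.59, SE 0.82, adjusted p = 0.0674). The gene with the smallest p of each other list was Sort1 (−0.51 in WT, adjusted p = 0.112), Dgat1 (−1.75 in WT, adjusted p = 0.0674), Npc2 (−0.78 in WT, adjusted p = 0.0674), Scarb2 (0.32 in KO, adjusted p = 0.558) and Lrpap1 (−0.19, KO against WT on SFD, adjusted p = 0.766). Medians of these other lists lay between −0.21 and 0.17 in WT and between −0.20 and 0.16 in KO.

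The genes whose pattern over libraries was most like that of a member were found by the root mean square difference of centred log2 FPM, for members with an SD of at least 0.5. Over 14 aortae Cd36 was followed most closely by Agpat2 (difference 0.19), Lipe (0.23) and Cyp2f2 (0.26), and Scarb1 by Srebf1 (0.19), Ciapin1 (0.21) and Pgk1.rs7 (0.22). Agpat2 makes precursors of triacylglycerol and Lipe is hormone-sensitive lipase. Mttp and Cubn were closest to Muc2 (0.27) and Six4 (0.45), at fragment numbers where counting error is a large part of the spread. Over 16 kidneys Apoe was followed by Prodh2 (0.26), Spp2 (0.27) and Npl (0.30).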

How the data were processed

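RNA from 14 aortae and 16 kidneys was sequenced at different places, so the tissues were fitted separately. The authors deposited raw counts of fragments per gene, made by trimming with cutadapt, alignment to GRCm38 (mm10) with TopHat and counting with featureCounts. The strand setting of the counting is not given in the sources used here. Of 41128 gene IDs 40254 matched GENCODE vM21, which gave positions and exon lengths. Counts were scaled by TMM, genes with low counts were removed with filterByExpr, and 1 coefficient per group was fitted with the quasi-likelihood test of edgeR 4.0.16 in R 4.3.3 (limma 3.58.1). P-values were adjusted by Benjamini-Hochberg over all genes tested (14796 aortic, 15034 renal). Diets were compared within each genotype and genotypes within each diet, and an interaction contrast compared the diet effects. The procedure was tested on simulated data with the same spread for every gene and no libraries set apart like the adipocyte-rich aortae.

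No library was a copy of another: over genes with at least 10 fragments in a pair, the mean chi-square per gene of the closest pair was 8.38 for aortae and 9.22 for kidneys, where counting error alone gives 1. Columns of unmatched samples numbered 0.

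The members and lists were chosen with earlier results of these data known. All members were named, and from each list every called gene up to 4, or otherwise the gene with the smallest p. Alternatives were DESeq2 1.42.0, the older quasi-likelihood form, RLE factors, library totals, no low count filter, only the groups compared, a stricter adjusted p of 0.001 as used in the study, adipocyte or proximal tubule marker covariates, longest transcripts, and leaving out each library. The fits without the 4 aortae rich in adipocyte markers (mean log2(FPM + 1) over 3.5) and with a macrophage marker covariate were chosen after seeing the data. All 6021 genes listed on chromosomes 9, X, Y and MT stood at 0 in every library of the tables used, among them 16 list and marker genes, and so did 4 more of these on chromosome 8. They were not analysed here, their 0 was not read as low expression, and a called list gene is not reported here. Figures were drawn with matplotlib 3.10.9.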

Additional observations from a re-analysis of the deposited data

Results flagged for a closer look

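In groups of 4 libraries a value was picked out when its gap to the nearest other library exceeded Dixon's 95% critical share of the group's range. Of 60 groups 7 held such a value. The limit picks about 1 in 20 groups when values follow a normal distribution, which was not tested here. A group with a single library above 0 always passes the limit, so that rate does not apply to it. Kidney Apoe in WT-HFD replicate 2 was 1928 FPM against 1211, 1293 and 1322 FPM in the other mice, and the SFD kidneys lay far below all 4. Aortic Vldlr in KO-HFD replicate 1 was 123.0 FPM against 92.7, 95.4 and 97.7 FPM. Aortic Scarb1 was 11.68 FPM in WT-HFD replicate 3 against 7.84, 8.31 and 8.47 FPM, and 13.41 FPM in KO-HFD replicate 4 against 8.93, 9.04 and 9.67 FPM. The other 3 rest on few fragments in groups otherwise at 0: aortic Lrp2 at 0.7035 FPM in WT-HFD replicate 2 (7 fragments), and aortic Apob at 0.102 FPM in WT-HFD replicate 1 and 0.09391 FPM in KO-HFD replicate 2 (1 fragment each).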

How the results depend on the processing

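Apoe in the kidney was called higher in 34 of 34 refits over both genotypes, with 1.93 to 2.28 in WT and 1.49 to 1.804 in KO when libraries were left out. Mttp in KO kidney was called in 13 of 17 refits. The number of members called in KO kidney fell from 2 to 1 at an adjusted p under 0.001 and to 1 with the proximal tubule covariate, and ranged from 1 to 2 when libraries were left out (1 without KO-SFD replicate 2 or KO-HFD replicate 4). In WT kidney it rose from 1 to 2 with DESeq2 and ranged from 1 to 2 when libraries were left out. In WT aorta it rose from 0 to 2 with DESeq2, to 1 with library totals in place of TMM and to 1 without the low count filter, and ranged from 0 to 4 when libraries were left out (4 without WT-SFD replicate 3). Over all genes, calls in WT kidney moved from 145 to 263 with DESeq2 and 26 at an adjusted p under 0.001, and those in KO kidney from 360 to 695 and 50, to 235 with the compared groups alone and to 202 with the proximal tubule covariate. KO against WT, aortic calls moved from 12 to 21 on SFD and 40 on HFD with DESeq2 and to 2 and 29 without the 4 aortae rich in adipocyte markers, and ranged from 5 to 61 on SFD when libraries were left out (61 without WT-SFD replicate 3).

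Without the 4 aortae rich in adipocyte markers the sign of the diet difference turned in WT for Cd36 (0.55), Cubn (−0.40), Mttp (0.19), Scarb1 (0.45), Apoe (0.067) and Abca1 (0.13), in KO for Cd36 (0.27), and for the difference between genotypes in the diet effect on Cd36 (−0.28), Mttp (−0.215), Scarb1 (−0.56), Apoe (−0.155) and Abca1 (−0.255). With the adipocyte covariate it turned in KO for Cd36 (0.15), Mttp (0.22), Scarb1 (0.16) and Apoe (0.012). With the proximal tubule covariate the difference between genotypes in the diet effect on kidney Mttp turned to −0.081. When libraries were left out WT aortic Cubn ranged from −0.20 to 0.71, KO aortic Mttp from −0.36 to 0.14 and WT kidney Abca1 from −0.16 to 0.12. Beyond these constructions the causes were not tested. Of 557 refits of the values in the text 523 kept direction and side of the threshold. This count does not measure how far a value moved. Cd36 in WT aorta, at −3.42 in the main fit and −0.33 with the adipocyte covariate, was uncalled in both and is among the 523. Library totals moved the median of all genes by up to 0.27. Dividing by the longest transcript moved 5 kidney and 4 aortic levels by over 1 SD. Mttp, Cubn, Lrp2 and Apob in the aorta are limited by depth. No paired analysis was possible because within a tissue the genotype and diet groups share no mouse.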
